A study of Mus musculus with 3 samples.

Results

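The genes described here are 10 genes of channels and sensors that carry calcium signals in cells exposed to flow or to emptied calcium stores. They were taken by symbol from the tables of a series with 24091 genes, and all 10 were found: Piezo1, Piezo2, Trpv4, Pkd1, Pkd2, Stim1, Stim2, Orai1, Orai2 and Orai3. The series holds bulk RNA-seq of 3 libraries from C57BL/6 mice, labelled as lymphatic endothelial cells of the large intestine and called replicates 1, 2 and 3 here. Cells from digested intestine were sorted on CD31, podoplanin and LYVE1, and the series title names capillaries and collectors, which the libraries do not separate. No treatment, age or genotype is given, the libraries form 1 group, and nothing says that they came from separate animals. SDs thus measure only the spread between these libraries, which may be technical, and p-values rest on these libraries alone. The gene values are TPM, by definition a transcript abundance corrected for transcript length and library total. Levels of different genes are compared per length, which assumes this correction, as the lengths used are not given in the sources used here.

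PIEZO proteins are large pore-forming channels that open when the membrane is stretched or sheared. In mouse lymphatic endothelium PIEZO1 is known to be required for the valves that form where flow is disturbed. ORAI proteins form the plasma membrane pore of store-operated calcium entry, in which STIM proteins in the endoplasmic reticulum (ER) sense low stored calcium and open ORAI. ORAI1 has been linked to the calcium response of lymphatic endothelial cells to laminar flow, upstream of the transcription factors KLF2, KLF4 and PROX1. The polycystins, encoded by Pkd1 and Pkd2, form a receptor and channel complex named after polycystic kidney disease, and mice lacking them have lymphatic defects. TRPV4 is a cation channel opened by swelling, warmth and fatty acid derivatives.

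The labelled cell type was checked against its markers before the channels were read. All 11 lymphatic markers reached at least 1 TPM in every library, with summed levels of 1692, 1771 and 984 TPM in replicates 1, 2 and 3. Markers of colon epithelium were far more abundant, with 14 of 14 at this level and sums of 20421, 23931 and 25628 TPM. Blood endothelial markers (11 of 11; 836, 759 and 741 TPM) and macrophage markers (9 of 9; 312, 234 and 608 TPM) were also present. Fibroblast markers summed to 189, 129.8 and 477 TPM (8 of 8) and smooth muscle and pericyte markers to 232, 187 and 414 TPM (9 of 9). The levels below are therefore those of a mixture, and fewer cells of a type and less RNA per cell cannot be told apart in it. Replicate 1 was lower than the others for most genes, though not in its total. Among the 12862 genes with at least 1 TPM in each library, called expressed here, 63.2% were lowest in replicate 1. On the log2(TPM + 1) scale the median difference was 0.19 for replicate 2 minus replicate 1 and 0.19 for replicate 3 minus replicate 1. Leaving out ribosomal protein genes and Mir6236 raised other genes 1.37, 1.31 and 1.31 times in replicates 1, 2 and 3. Those genes thus took a larger share of replicate 1.

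All 10 channel and sensor genes were expressed by this definition, beside 53.4% of all genes in the tables. Stim1, the ER calcium sensor, stood highest at 33.5, 48.1 and 56.8 TPM in replicates 1, 2 and 3. Trpv4 stood lowest at 4.09, 2.70 and 3.84 TPM. The median of the 10 mean levels was 13.2 TPM, beside a median of 17.0 TPM over all expressed genes. By mean level the order was Stim1, Orai1, Orai3, Orai2, Stim2, Pkd1, Piezo1, Piezo2, Pkd2 and Trpv4. Stim1, Orai1 and Orai3 took ranks 1, 2 and 3 in every library and Trpv4 took rank 10 in every library. Neighbours whose within-library difference exceeded its SD over the 3 libraries were Stim1 and Orai1, Orai1 and Orai3, Orai3 and Orai2, Stim2 and Pkd1, and Pkd2 and Trpv4. The ranges of Orai3 and Orai2 nevertheless overlapped. Orai2 and Stim2, Pkd1 and Piezo1, Piezo1 and Piezo2, and Piezo2 and Pkd2 did not differ beyond this spread. The STIM and ORAI genes together held 70.8%, 72.9% and 76.2% of the summed TPM of the 10 genes, which was 143, 169 and 184 TPM.

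**Figure D1:**
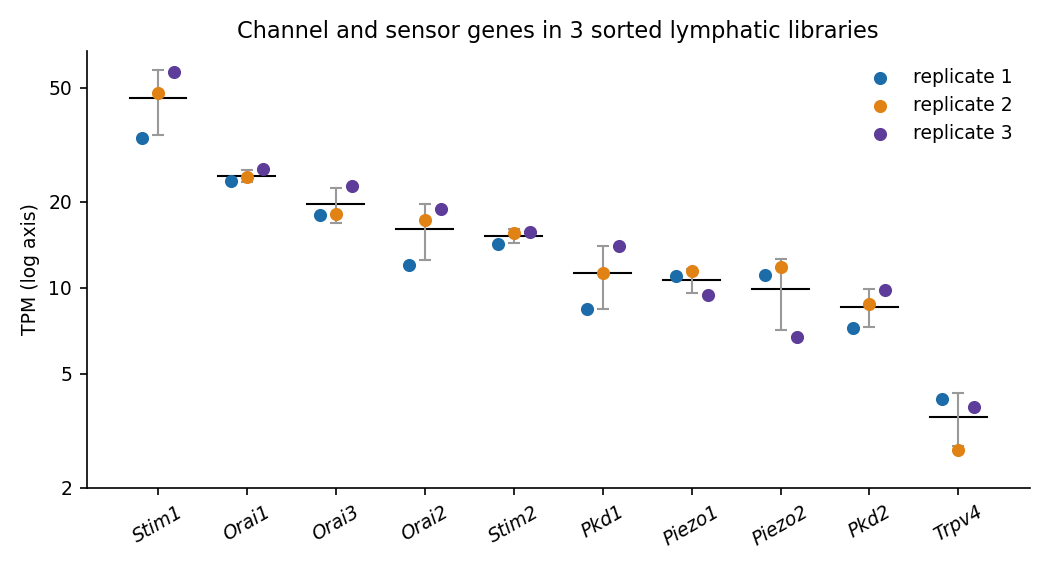
TPM of the 10 genes in each of 3 libraries on a log axis; points are libraries, black lines are means and grey bars are SDs over 3 libraries. The Stim1 points lie between 33.5 and 56.8 TPM, above all others, and the Trpv4 points between 2.70 and 4.09 TPM, below all others.

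Promoter sequences of 5 of these genes are shown. Stim1, Orai2, Pkd1 and Pkd2 were chosen because they were lowest in replicate 1 before and after scaling, as described further on. Piezo1 was lowest in replicate 3 before and after scaling. The windows run from 250 bases before to 50 bases after the annotated start (RefSeq, GRCm38.p6), 5′ to 3′ on the gene's strand. For Stim1, Orai2, Pkd1 and Pkd2 the table's start lies inside the RefSeq gene bounds given further on, which begin upstream of it. They lie at chr7:102267569-102267868 for Stim1 (+ strand), chr5:136170607-136170906 for Orai2 (- strand) and chr17:24549700-24549999 for Pkd1 (+ strand). Those of Pkd2 and Piezo1 lie at chr5:104459207-104459506 (+ strand) and chr8:122551280-122551579 (- strand). Capitals mark the GC box GGGCGG that SP and KLF factors bind, the CACCC box CCACCC that KLF factors bind, and the TATA box TATAAA, each searched on both strands. A GC box and a CACCC box can overlap, but none do in these 5 windows.
Stim1: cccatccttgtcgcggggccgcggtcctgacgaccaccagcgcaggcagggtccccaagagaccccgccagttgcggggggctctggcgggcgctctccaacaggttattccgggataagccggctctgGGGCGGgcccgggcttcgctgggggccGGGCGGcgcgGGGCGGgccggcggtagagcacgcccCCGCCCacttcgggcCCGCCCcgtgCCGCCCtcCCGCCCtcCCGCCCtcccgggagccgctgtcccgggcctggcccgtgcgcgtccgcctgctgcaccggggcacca
Orai2: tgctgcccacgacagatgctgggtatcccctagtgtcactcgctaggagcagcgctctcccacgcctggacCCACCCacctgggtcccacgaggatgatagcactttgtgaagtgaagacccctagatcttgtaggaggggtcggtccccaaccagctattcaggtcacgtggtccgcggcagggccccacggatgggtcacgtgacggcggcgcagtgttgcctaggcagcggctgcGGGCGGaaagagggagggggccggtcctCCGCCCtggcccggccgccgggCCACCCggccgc
Pkd1: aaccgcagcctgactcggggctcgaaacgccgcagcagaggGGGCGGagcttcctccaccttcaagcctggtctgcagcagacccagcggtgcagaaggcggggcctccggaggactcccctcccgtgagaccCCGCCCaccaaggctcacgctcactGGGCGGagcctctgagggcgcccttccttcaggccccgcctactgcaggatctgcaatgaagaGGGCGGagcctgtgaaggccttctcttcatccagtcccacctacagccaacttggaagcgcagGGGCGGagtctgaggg
Pkd2: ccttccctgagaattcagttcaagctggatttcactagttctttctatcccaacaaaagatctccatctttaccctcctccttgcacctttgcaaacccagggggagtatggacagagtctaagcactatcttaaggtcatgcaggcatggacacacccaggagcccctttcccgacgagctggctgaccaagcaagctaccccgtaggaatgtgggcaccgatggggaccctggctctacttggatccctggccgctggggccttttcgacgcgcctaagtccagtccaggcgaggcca
Piezo1: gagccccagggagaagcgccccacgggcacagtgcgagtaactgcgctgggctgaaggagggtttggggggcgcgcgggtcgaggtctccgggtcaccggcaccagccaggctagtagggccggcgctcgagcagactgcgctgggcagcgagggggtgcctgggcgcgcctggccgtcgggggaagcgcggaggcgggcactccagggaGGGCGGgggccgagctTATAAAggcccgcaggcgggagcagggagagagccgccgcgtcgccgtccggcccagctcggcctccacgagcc

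The GC box was found in 8 places in the Stim1 window, 5 in Pkd1, 2 in Orai2, 1 in Piezo1 and none in Pkd2. At least 1 such box is present in 35.7% of all 32851 promoter windows of this length. The CACCC box was found in 2 places in Orai2 and in none of the other 4 windows (31.5% of all windows hold it). Of the 5 windows, that of Piezo1 alone held a TATA box, which 13.6% of all windows hold. The letters CCGGAAG of an ETS site, also searched on both strands, were found in none of the 5 (8.86% of all windows). CpG dinucleotides numbered 38 in Stim1, 24 in Orai2, 18 in Pkd1, 9 in Pkd2 and 34 in Piezo1, beside a median of 7 over all windows. The 4 genes that were lowest in replicate 1 before and after scaling thus ranged widely in CpG and GC box number. These numbers hold only for windows at the annotated starts used.

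Piezo1 (Entrez 234839, chromosome 8, 122481698 to 122551329, - strand, mm10) encodes the PIEZO channel of vessel endothelium. Its level was 10.996, 11.41 and 9.41 TPM in replicates 1, 2 and 3, a mean of 10.6 ± 1.06 (SD, n = 3, as for all means below). Piezo2 (Entrez 667742, chromosome 18, 63010213 to 63387716, - strand), best known as the channel of touch and gut stretch sensation, had 11.05, 11.79 and 6.75 TPM, a mean of 9.86 ± 2.72. The pair lay at almost the same level in replicates 1 and 2, and Piezo2 was the lower in replicate 3. Piezo1 minus Piezo2 on the log2(TPM + 1) scale was -0.0061, -0.043 and 0.43 in replicates 1, 2 and 3, with a mean of 0.13 ± 0.26, and an exact two-sided permutation test that flips signs gave p = 1 (1 after adjustment over the 7 differences tested). Without replicate 3 the mean difference was -0.025, so its direction rests on that library. Piezo1 made up 49.9%, 49.2% and 58.2% of the PIEZO sum.

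Sensory neurons and enteroendocrine cells are known sites of Piezo2, so their markers are given beside it. Enteroendocrine markers summed to 354, 275 and 303 TPM in replicates 1, 2 and 3 (7 of 9 expressed). Of the 7 expressed markers 5 were lowest in replicate 2, beside 13.9% of all expressed genes. The other 2, Gcg and Sst, were lowest in replicate 3 as Piezo2 was, beside 22.9% of all expressed genes. Markers of enteric neurons and glia were near the floor, with 1 of 9 expressed and sums of 10.2, 6.15 and 13.2 TPM, and the neuronal gene Elavl4 averaged 0.0889 ± 0.0794 TPM. The summed lymphatic markers were lowest in replicate 3, as Piezo2 was. The part of these cell types in the Piezo2 level was not tested. Among PIEZO-associated proteins, Mdfic, an auxiliary subunit of PIEZO channels, had 14.7, 14.1 and 11.9 TPM, lowest in replicate 3 as well. Its relative Mdfi averaged 1.41 ± 0.461 TPM and was below 1 TPM in replicate 3, Tmem120a 52.7 ± 5.78 and Pacsin3, also known to act on TRPV4, 18.1 ± 3.99 TPM. Stoml3, a sensitizer of PIEZO channels in sensory neurons, averaged 0.0765 ± 0.133 TPM and Tmem150c 0.249 ± 0.140 TPM, which left 3 of the 6 genes expressed. On the opposite strand Piezo1 overlaps Ctu2, a tRNA modification gene, over 2441 bases. Ctu2 was listed at 16.7, 16.0 and 13.4 TPM, and whether the authors counted by strand is not given in the sources used here, so reads of the overlap cannot be assigned.

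Trpv4 (Entrez 63873, chromosome 5, 114622152 to 114658435, - strand) averaged 3.54 ± 0.739 TPM and was lowest in replicate 2. Trpv4 minus Piezo1 was -1.24, -1.75 and -1.10 in replicates 1, 2 and 3 on the log2(TPM + 1) scale, with a mean of -1.36 ± 0.34. Trpv4 was thus lower in 3 of 3 libraries, by more than the spread between them, and the same exact test gave p = 0.25, the lowest possible value with 3 libraries (0.292 adjusted by Benjamini-Hochberg). Of 24 other TRP channel genes 11 were expressed, and the median of the 24 was 0.624 TPM. Trpm4, a calcium-activated cation channel, led them at 57.1 ± 6.14 TPM. The lysosomal channels Mcoln1 (24.7 ± 3.60 TPM) and Mcoln2 (19.5 ± 1.69 TPM) and the magnesium channels Trpm6 (15.4 ± 5.82 TPM) and Trpm7 (14.5 ± 3.18 TPM) followed. Trpm8 and Trpv5 were listed at 0 in all 3 libraries, and Trpa1, the irritant channel of enteroendocrine and sensory cells, averaged 0.0452 ± 0.0354 TPM.

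Other known stretch-activated channels and flow receptors gave 9 of 16 genes expressed. Gna11, a G protein subunit downstream of flow-sensitive receptors, had the highest mean at 125 ± 33.1 TPM. Pecam1 (109.7 ± 7.43 TPM) and Flt4 (73.5 ± 20.5 TPM) encode parts of the junctional flow-sensing complex. The OSCA-family channel genes Tmem63a and Tmem63b stood at 80.4 ± 5.76 and 43.5 ± 6.82 TPM, above both PIEZO genes, and Tmem63c at 0.0205 ± 0.0193 TPM. Per 100 TPM of Pecam1, Piezo1 amounted to 9.36, 10.5 and 9.17 TPM in replicates 1, 2 and 3 and Piezo2 to 9.41, 10.8 and 6.58 TPM.

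Pkd1 (Entrez 18763, chromosome 17, 24548689 to 24596514, + strand) encodes the large receptor-like polycystin-1. Its level was 8.44, 11.3 and 14.0 TPM in replicates 1, 2 and 3, a mean of 11.2 ± 2.77. Pkd2 (Entrez 18764, chromosome 5, 104453982 to 104505819, + strand), which encodes the channel subunit polycystin-2, had 7.22, 8.75 and 9.83 TPM, a mean of 8.60 ± 1.31. Both were lowest in replicate 1 and highest in replicate 3. Pkd1 minus Pkd2 was 0.20, 0.33 and 0.47 on the log2(TPM + 1) scale, with a mean of 0.33 ± 0.13, and the exact sign-flip permutation test gave p = 0.25 (0.292 adjusted), with Pkd1 higher in 3 of 3 libraries. Pkd1 held 53.9%, 56.3% and 58.7% of the sum of both. The 3′ ends of Pkd1 and Tsc2, a repressor of mTORC1 on the opposite strand, overlap by 693 bases. Tsc2 was listed at 19.997, 31.5 and 17.8 TPM, highest in replicate 2 and not in the order of Pkd1.

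Other polycystin family genes were low, with 1 of 6 expressed and a median of 0.393 TPM. Pkd2l2 reached 3.91 ± 0.421 TPM, while Pkd1l3 (0.841 ± 0.0230 TPM), Pkdrej (0.456 ± 0.119 TPM), Pkd2l1 (0.0959 ± 0.0118 TPM) and Pkd1l2 (0.0110 ± 0.0128 TPM) stayed below 1 TPM. Pkhd1, the gene of the recessive form of polycystic kidney disease, averaged 0.330 ± 0.128 TPM. Polycystins act at the primary cilium in kidney cells, and 9 of 10 cilium genes were expressed, with a median of 4.93 TPM. Ift20, also a Golgi protein, stood highest at 140.5 ± 7.58 TPM. The ciliary transport genes Ift88 and Kif3a averaged 5.37 ± 0.986 and 4.26 ± 0.863 TPM and the ciliary GTPase gene Arl13b 9.59 ± 0.877 TPM. Bicc1, which binds polycystin transcripts in mouse kidney, averaged 0.759 ± 0.784 TPM. These cilium genes were measured in the whole mixture and do not show which cells bear cilia.

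Stim1 (Entrez 20866, chromosome 7, 102261514 to 102437319, + strand) averaged 46.1 ± 11.8 TPM and lay at percentile 87.3 ± 2.38 of all genes in the tables. Stim2 (Entrez 116873, chromosome 5, 53998523 to 54121057, + strand), whose product responds to smaller losses of stored calcium, had 14.2, 15.6 and 15.7 TPM, a mean of 15.2 ± 0.843. Stim1 was above Stim2 in every library. The difference Stim1 minus Stim2 was 1.18, 1.57 and 1.79 on the log2(TPM + 1) scale in replicates 1, 2 and 3, with a mean of 1.51 ± 0.31 or 2.85-fold, and the exact sign-flip permutation test gave p = 0.25 (0.292 adjusted). Stim1 took 70.2%, 75.5% and 78.3% of the STIM sum. Stim1 varied between the libraries while Stim2 hardly did, with an SD on the log2(TPM + 1) scale of 0.38 for Stim1 and 0.08 for Stim2. Among the 500 genes of nearest mean level, 91.2% had a lower SD than Stim1 and 10.2% a lower SD than Stim2.

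Orai1 (Entrez 109305, chromosome 5, 123015074 to 123030452, + strand) encodes the principal pore subunit of store-operated entry. It had 23.7, 24.3 and 26.05 TPM in replicates 1, 2 and 3, a mean of 24.7 ± 1.22, and 11.8% of the 500 genes of nearest mean level had a lower SD. Orai3 (Entrez 269999, chromosome 7, 127769815 to 127775150, + strand) had 18.01, 18.08 and 22.7 TPM, a mean of 19.6 ± 2.69, highest in replicate 3. Orai2 (Entrez 269717, chromosome 5, 136147456 to 136170697, - strand), known in mouse immune cells for dampening the ORAI1 current, had 12.1, 17.3 and 18.9 TPM, a mean of 16.1 ± 3.59, lowest in replicate 1. No single ORAI gene held most of the family's transcripts in any library. Orai1 took 44.1%, 40.8% and 38.5% of the ORAI sum, Orai3 33.5%, 30.3% and 33.6%, and Orai2 22.4%, 28.97% and 27.96%.

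Orai1 exceeded Orai2 by 0.92, 0.47 and 0.44 on the log2(TPM + 1) scale (mean 0.61 ± 0.27, 1.53-fold) and Orai3 by 0.38, 0.41 and 0.19 (mean 0.33 ± 0.12, 1.25-fold). It was higher in 3 of 3 libraries in each comparison, with p = 0.25 by the exact sign-flip permutation test (0.292 adjusted). Set against its activator, Orai1 minus Stim1 was -0.48, -0.95 and -1.10, with a mean of -0.84 ± 0.32, lower in 3 of 3 libraries with the same p-values from the exact test. The families as a whole differed by less than the spread between libraries, with ORAI the higher in replicate 1 only. The ORAI genes summed to 53.7, 59.7 and 67.7 TPM and the STIM genes to 47.7, 63.7 and 72.5 TPM, a ratio of ORAI to STIM of 1.13, 0.94 and 0.93 with a mean of 0.999 ± 0.111. These are transcript ratios in a mixture of cells and do not give the protein ratio at any membrane.

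**Figure D2:**
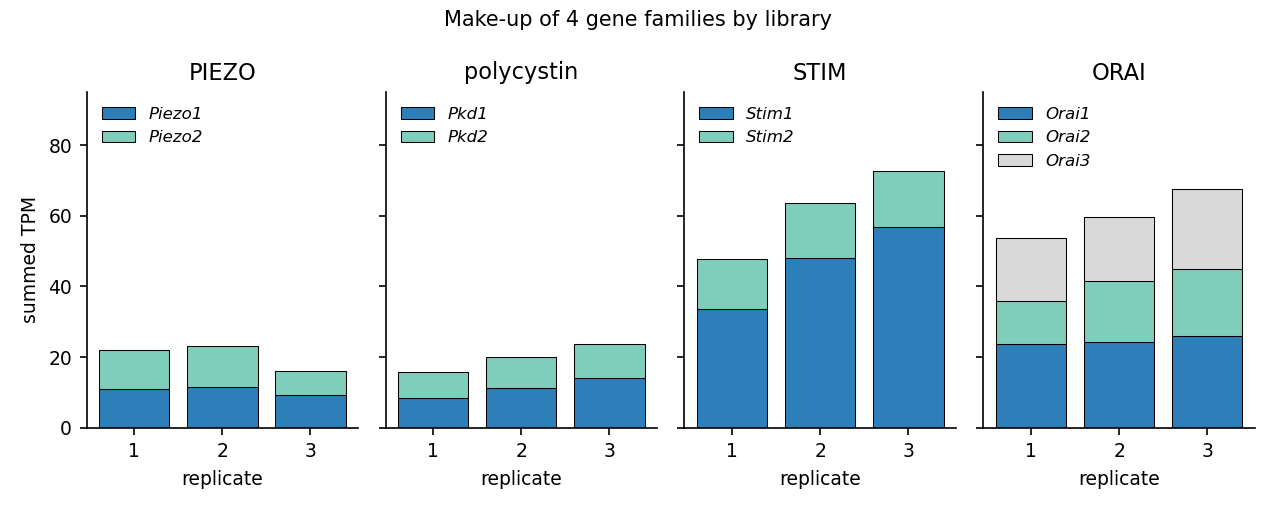
Summed TPM of the PIEZO, polycystin, STIM and ORAI genes in replicates 1, 2 and 3, with the bar segments giving each gene's share. Piezo1 and Piezo2 are near equal in replicates 1 and 2, Stim1 holds 70.2% to 78.3% of the STIM sum, and Orai1 holds 38.5% to 44.1% of the ORAI sum.

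Regulators of STIM and ORAI were largely present, with 9 of 11 genes expressed and a median of 37.7 TPM. Saraf, an ER protein that promotes slow inactivation of the entry, averaged 113 ± 2.32 TPM and Cracr2b, a relative of the ORAI-binding protein CRACR2A, 109 ± 12.7 TPM. Other high members were the septin gene Sept7 (65.6 ± 2.47 TPM) and Esyt2 (50.1 ± 10.1 TPM), whose product tethers ER to plasma membrane. Cracr2a itself had 5.75, 17.7 and 23.2 TPM, lowest in replicate 1. So were 6 of the 9 expressed genes of this list, beside 63.2% of all expressed genes. Tmem178, which encodes a STIM1-binding protein, was the lowest at 0.420 ± 0.302 TPM.

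The ER stores that STIM proteins sense are emptied by inositol trisphosphate receptors and refilled by SERCA pumps. Itpr3 (24.6 ± 9.70 TPM) stood above Itpr1 (9.63 ± 2.36 TPM) and Itpr2 (3.95 ± 1.45 TPM), by 1.69, 3.39 and 2.51 times over Itpr1 in replicates 1, 2 and 3. The ryanodine receptor genes were low, with Ryr3 at 1.25 ± 0.419, Ryr1 at 0.0966 ± 0.0213 and Ryr2 at 0.0658 ± 0.0387 TPM. Of the SERCA genes, Atp2a3 averaged 285 ± 60.7 TPM, Atp2a2 67.3 ± 15.5 TPM and the skeletal muscle form Atp2a1 0.0793 ± 0.0245 TPM. In all, 5 of 9 of these genes were expressed, and each of the 5 was lowest in replicate 1, the library in which 63.2% of all expressed genes were lowest. After scaling by the median of ratios, described further on, 4 of the 5 stayed lowest there and Itpr1 did not, beside 37.0% of all expressed genes lowest in replicate 1.

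Routes of calcium out of the cytosol were represented by few genes each. Of 8 plasma membrane pump and exchanger genes 4 were expressed: Slc8b1, which acts in mitochondria (38.9 ± 0.351 TPM), Atp2b1 (32.4 ± 7.94 TPM), Atp2b4 (7.89 ± 1.72 TPM) and Slc8a1 (6.13 ± 2.01 TPM). All 6 genes of the mitochondrial uniporter complex were expressed, from Micu3 (1.72 ± 0.308 TPM) to Smdt1 (509.6 ± 9.87 TPM), with the pore gene Mcu at 56.3 ± 9.67 TPM. Other entry routes are given as whole gene families, whereas the 10 channel and sensor genes were chosen, so their shares are not compared. Among 10 voltage-gated pore genes 3 were expressed, Cacna1h (3.52 ± 1.09 TPM), Cacna1a (1.60 ± 0.435 TPM) and Cacna1b (1.49 ± 0.278 TPM), with a median of 0.475 TPM over the 10. Cacna1c, the smooth muscle and heart channel, averaged 0.547 ± 0.133 TPM. Of 7 ATP-gated P2X genes 2 were expressed, with P2rx4, known as a flow-responsive channel of endothelium, at 84.9 ± 13.5 TPM and P2rx7 at 4.41 ± 1.31 TPM. P2rx4 was higher than every one of the 10 channel and sensor genes in each library.

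Calcium that enters through ORAI and PIEZO channels can activate calcineurin, which sends NFAT factors to the nucleus. Of 15 genes of calmodulin, calcineurin, its RCAN regulators and NFAT 14 were expressed, with a median of 20.5 TPM. Among the high members were the calmodulin genes Calm2 (624 ± 25.4 TPM) and Calm3 (298 ± 29.5 TPM) and the calcineurin genes Ppp3r1 (50.2 ± 5.02 TPM) and Ppp3ca (45.9 ± 5.30 TPM). The testis form Ppp3r2 averaged 0.0184 ± 0.0319 TPM. Among the factors, Nfatc3 stood at 20.5 ± 3.53 TPM and Nfatc1, needed for lymphatic valves in the mouse, at 14.3, 14.0 and 10.7 TPM. Nfatc1 and Nfatc2 were lowest in replicate 3, and Nfatc3 and Nfatc4 in replicate 1. Of the 14 expressed genes 5 were lowest in replicate 3, beside 22.9% of all expressed genes, and 9 in replicate 1, beside 63.2%. Nfatc2 averaged 3.43 ± 0.402 TPM and Nfatc4 1.96 ± 0.880 TPM.

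Flow-responsive and valve genes gave 15 of 17 expressed, with a median of 10.8 TPM. Klf4 (203 ± 45.4 TPM), Klf2 (80.6 ± 8.29 TPM), the connexin gene Gja1 (46.0 ± 8.23 TPM), the YAP target Cyr61 (33.7 ± 1.77 TPM) and Yap1 (30.2 ± 4.77 TPM) were the highest, and Ankrd1 (0.432 ± 0.499 TPM) the lowest. Colon epithelium is also known to express Klf4. The valve factor gene Foxc2 had 8.28, 7.21 and 4.303 TPM and Gja4 26.1, 24.6 and 15.9 TPM, both lowest in replicate 3. Of the 15 expressed genes 9 were lowest in replicate 3, beside 22.9% of all expressed genes. After scaling by the median of ratios the count was again 9, beside 37.9% of all expressed genes. Over the 13 lists described, 91 of 145 genes were expressed (62.8%), beside 53.4% of all genes, and the median level was 4.26 TPM, beside 2.48 TPM over all genes.

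**Figure D3:**
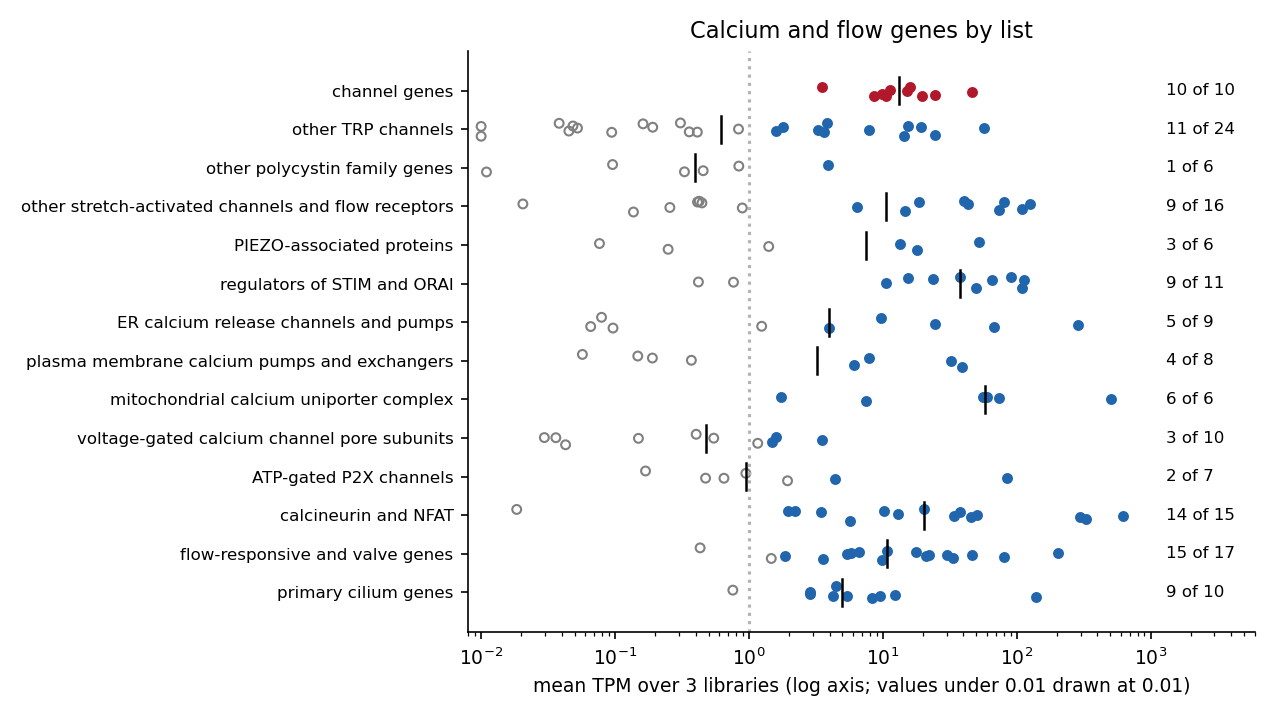
Mean TPM over 3 libraries (log axis) of the 10 channel and sensor genes in red and of 13 lists of calcium and flow genes in blue; open circles are genes that missed a TPM of 1 in at least 1 library, vertical bars are list medians and the dotted line is 1 TPM. All 10 red points lie right of the line, while 13 of the 24 other TRP genes and 7 of the 10 voltage-gated genes are open circles.

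The 10 genes fell into differing patterns between the libraries. Lowest in replicate 1 were 7 of them, Stim1, Stim2, Orai1, Orai2, Orai3, Pkd1 and Pkd2, beside 63.2% of all expressed genes. Piezo1 and Piezo2 were lowest in replicate 3, beside 22.9% of expressed genes, and Trpv4 was lowest in replicate 2, beside 13.9%. The share of 7 in 10 lies near the background, as most expressed genes were lowest in replicate 1. After scaling by the median of ratios, which removes the median shift of replicate 1, Stim1, Orai2, Pkd1 and Pkd2 stayed lowest there (37.0% of expressed genes). The PIEZO genes stayed lowest in replicate 3 (37.9%) and Trpv4 in replicate 2 (25.1%). For Pkd2 the scaled levels of replicates 1 and 2 were close, at 8.01 and 8.27 TPM, against 9.25 TPM in replicate 3. Orai1, Orai3 and Stim2 were lowest in replicate 2 after this scaling, so their lowest library depends on the scaling. Orai3 was highest in replicate 3 both as deposited and after scaling.

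Differences from replicate 1 are read against the median shift of 0.19 over all expressed genes. Replicate 3 minus replicate 1 was 0.74 for Stim1, 0.67 for Pkd1, 0.61 for Orai2 and 0.40 for Pkd2 on the log2(TPM + 1) scale. Of all expressed genes 91.8%, 89.2%, 86.5% and 71.4% had smaller values than Stim1, Pkd1, Orai2 and Pkd2. The same difference was -0.64 for Piezo2 and -0.20 for Piezo1, and 1.69% of expressed genes lay below Piezo2 and 11.8% below Piezo1. For Trpv4, replicate 2 minus replicate 1 was -0.46, with 2.18% of expressed genes below it. Ranked against expressed genes of any level, Piezo2 was thus among the lowest in replicate 3 relative to replicate 1. By the same ranking Trpv4 was among the lowest in replicate 2 relative to replicate 1. Among the genes of nearest mean level, 83.6% had a lower SD than Piezo2 and 48.4% a lower SD than Trpv4. The spread of Trpv4 between the libraries was thus ordinary for its level.

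Marker lists moved between the same libraries. Values are log2(TPM + 1) centred on the mean of the 3 libraries, in the order of replicates 1, 2 and 3. The lymphatic list stood at 0.17, 0.23 and -0.40, and Piezo2 at 0.18, 0.27 and -0.45. Of the lymphatic genes 10 of 11 were lowest in replicate 3, beside 22.9% of all expressed genes. The list of endothelium of all kinds stood at 0.18, 0.02 and -0.20 (9 of 10 lowest in replicate 3), and Piezo1 at 0.05, 0.10 and -0.15. Piezo1 was highest in replicate 2, as the lymphatic list was, while the list of endothelium of all kinds was highest in replicate 1. The epithelial list stood at -0.15, 0.02 and 0.14 (8 of 14 lowest in replicate 1, and 4 of 14 after scaling by the median of ratios, beside 63.2% and 37.0% of expressed genes), and Stim1 at -0.42, 0.09 and 0.33. Fibroblast markers stood at -0.31, -0.74 and 1.05, with 8 of 8 lowest in replicate 2, beside 13.9% of all expressed genes. Smooth muscle and pericyte markers stood at -0.16, -0.40 and 0.56, and macrophage markers at -0.18, -0.54 and 0.72. Trpv4, at 0.18, -0.28 and 0.11, shared its lowest library with these 3 lists and with the enteroendocrine list (0.17, -0.27 and 0.10). The blood endothelial list stood lowest in replicate 2 as well, at -0.25, against -0.01 in replicate 1 and 0.26 in replicate 3, although 6 of its 11 genes were lowest in replicate 3. Lymphocyte and plasma cell markers, with 7 of 11 expressed, stood at -0.59, -0.13 and 0.72. Their order of libraries was that of Stim1, as was the order of the epithelial list. The part of these cell types in the channel levels was not tested.

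**Figure D4:**
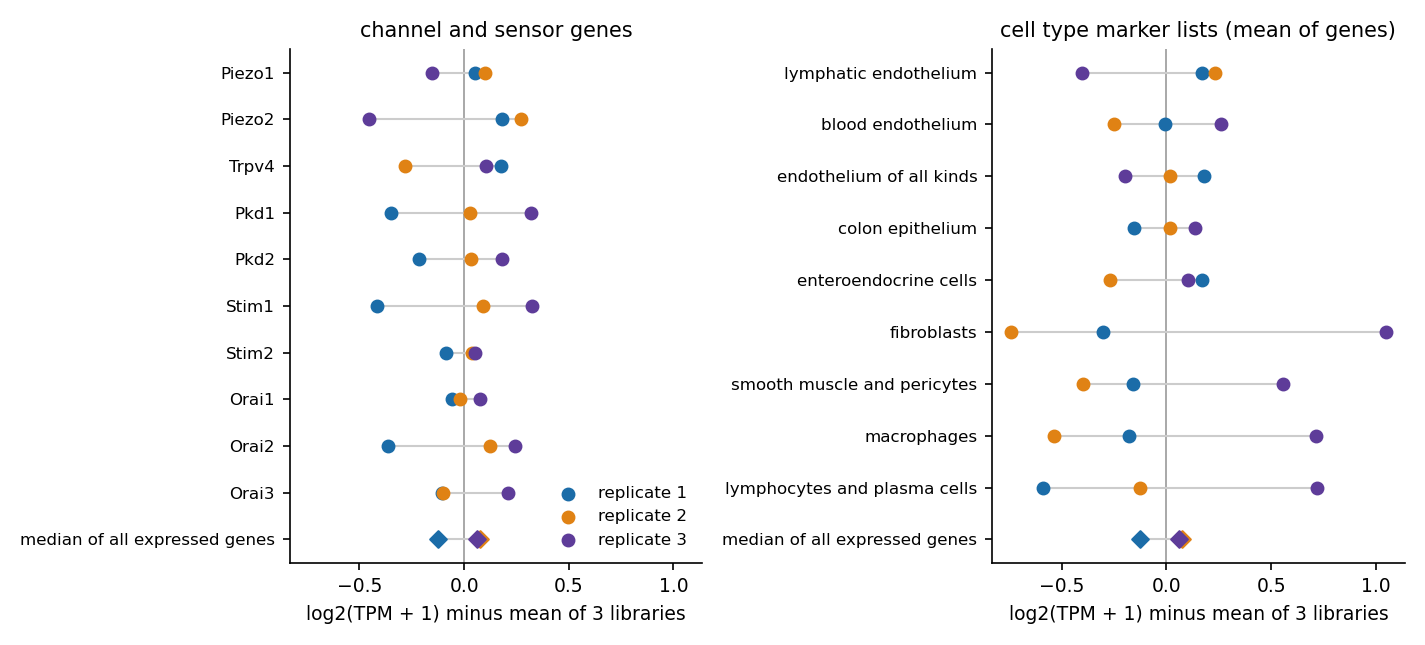
Deviation of each library from the mean of 3 libraries, in log2(TPM + 1), for the 10 genes (left) and for the mean of the expressed genes of 9 marker lists (right); diamonds give the median of all expressed genes. Piezo1, Piezo2, the lymphatic list and the list of endothelium of all kinds have their lowest point in replicate 3. The STIM, ORAI and polycystin genes have theirs in replicate 1. So do the epithelial list, the lymphocyte and plasma cell list and the median of all expressed genes.

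Genes whose centred values over the 3 libraries were nearest to those of Piezo1 were Tomm20, Spaca7 and Arl6ip4, at Euclidean distances of 0.0038, 0.0054 and 0.0058. Nearest to Orai1 were Acp5, 5730508B09Rik and Tax1bp1. Of 13605 genes compared, 634 lay within a distance of 0.1 of Piezo1 and 1408 of Orai1, so 3 libraries do not single out any gene by this measure.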

How the data were processed

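Deposited values were TPM, 1 table per library, with 24091 genes by Entrez ID and symbol. The submitters' processing notes name mm10, Cell Ranger 6.0.1 and HTSeq; how the authors computed TPM, with which lengths and whether by strand, is not given in the sources used here. Library totals were 999939, 999907 and 999896. TPM keeps no sequencing depth, so the depth is unknown and no counting interval is given.

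The members and lists were chosen with earlier results of these data known. Values were taken as log2(TPM + 1), and folds on this scale understate differences of low genes. Expressed means at least 1 TPM in each library. 7 differences between members, taken within a library, were tested by an exact two-sided permutation test flipping signs, adjusted by Benjamini-Hochberg; 3 libraries cannot give a p below 0.25. The SD of a member was placed among 500 genes of nearest mean. Steps were tested on simulated data.

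All 10 members are named, as are all genes of lists with 10 or fewer genes, the 5 highest and the lowest of longer lists, markers, genes overlapping a member and the 3 nearest profiles to Piezo1 and Orai1, except a few that are not reported here. Trpa1, Cracr2a, the NFAT genes, Foxc2 and Gja4 were named after their values were seen. Pkd1l1 was not found by symbol, and 24045 of the IDs matched RefSeq GRCm38.p6, the assembly of mm10, which gave coordinates and promoters; overlaps come from GENCODE M21. Promoters were taken for 9 of 10 members, as member windows on chromosome 18, where Piezo2 lies, were left out. No protein sequence was used here. Alternatives were other pseudocounts, thresholds and scalings and leaving out each library. Python 3.11.15, numpy 2.4.6, pandas 2.3.3 and matplotlib 3.10.9 were used.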

Additional observations from a re-analysis of the deposited data

How the results depend on the processing

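Of 67 alternative values for the 7 differences and 2 counts of expressed genes, 66 kept their direction or stayed within 1.5 times. The exception was Piezo1 minus Piezo2, at -0.025 without replicate 3 and between -0.025 and 0.21 when each library was left out in turn, against 0.13 with all 3. The test of these differences cannot pass 0.05 with 3 libraries, nor below 0.5 with 2, so the kept direction is all these alternatives show. The 10 members were expressed under every alternative except a TPM of 5, which left 9, without Trpv4. Counts of the 145 pathway genes ran from 64 at a TPM of 5 to 136 at any TPM above 0, with 91 as given. Scaling without 86 ribosomal protein genes and Mir6236 put Orai1 and Orai3 lowest in replicate 2. Depth cannot be read from TPM, so counting error of the low genes is unknown. No paired analysis was possible because the series holds 1 group, so no groups can be paired by replicate number; the 7 differences were each taken between genes within a library.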
